A study of Mus musculus with 56 samples.

Results

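The collagen genes were followed across the lung, liver and forestomach of mice given chrysene, a polycyclic aromatic hydrocarbon. A gene was a member if its symbol was Col, a number, the letter a and a number, which gave 42 of the 20018 genes that could be named on the array. The reference table holds 44 such symbols, and Col6a3 and Col12a1 had no named probe here. Each gene was represented in each tissue by its brightest probe, and 14 genes had several probes. The animals were male Muta Mouse, a transgenic strain that carries a recoverable reporter for scoring mutations, about 14 weeks old, and every animal in every group carried that transgene. They received olive oil by gavage for 28 days, alone (D0) or with chrysene in daily doses of 17.5 mg/kg (D1), 50 mg/kg (D2) or 150 mg/kg (D3), and tissues were collected 72 hours after the last dose. RNA from random slices of each tissue was hybridised in Cy5 against a universal reference RNA of mouse cell lines in Cy3, 1 array per mouse and tissue with no dye swap. Lung had 5, 5, 3 and 5 arrays from D0 to D3, and liver and forestomach had 5, 5, 4 and 5 each, which makes 56 arrays.

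Collagens are triple-helical proteins of the extracellular matrix, each built from 3 chains. The fibrillar types, led by types I and III, form the fibres that give tissue its tensile strength, and they are made mainly by fibroblasts and related stromal cells. Type IV chains form the sheet of the basement membrane under epithelium and around vessels, type VII anchors that sheet to the stroma, and type XVII spans the membrane of basal epithelial cells. In lung, liver and stomach these genes are best known from fibrosis, wound repair and epithelial attachment.

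A log2 ratio of 0 means the same signal as the reference RNA, and ratios are compared only between arrays for 1 probe, never between probes. A collagen gene was tested where at least 3 arrays of the tissue had its Cy5 spot well above background, which held for 31 genes in lung, 27 in forestomach and 19 in liver. The signal was well above background on all arrays for 24, 10 and 14 collagen genes and on no array for 6, 11 and 21. Col2a1, the cartilage fibril collagen, was well above background on 1 lung, 0 liver and 2 forestomach arrays and was tested in none of the tissues, and the cartilage marker list lay between -0.20 and 0.20 on all arrays. The tissues matched their labels by marker genes: the alveolar type 2 list averaged 5.91 to 6.49 in lung and the hepatocyte list 6.29 to 6.82 in liver. In forestomach the keratinocyte list averaged 4.56 to 7.27, and the glandular stomach list ran from 0.21 to 7.08, so that the random slices differed widely in genes of the glandular mucosa. The forestomach slices also differed widely in the adipocyte list, from 0.13 to 5.25, and in the hepatocyte list, from 0.06 to 4.51. The slices of 2 D3 lungs stood apart: mice 17 and 19 had skeletal muscle lists of 5.56 and 5.83 and keratinocyte lists of 4.48 and 5.00, whereas the other lungs reached at most 0.07 and -0.41. In forestomach, 39.0% to 50.2% of probes were well above background on slide 1 but 18.1% to 33.4% on the other 2 slides. In bulk tissue, fewer cells of a type and less RNA per cell cannot be told apart.

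The first comparison set the tissues of the D0 mice side by side, to ask where each collagen gene was used without chrysene. Lung and forestomach carried far more of the type I and III fibril collagens than liver, lung stood out for the basement membrane chains Col4a3 and Col4a4, and liver had more Col18a1. Of 31 collagen genes tested between lung and liver, 17 were higher in lung and 3 were lower by limma, with an adjusted p of at most 0.05 and a fold change of at least 1.5. Among all probes, 24.9% were called higher and 21.1% lower. Of 27 tested between forestomach and liver, 18 were higher in forestomach and 2 lower, against 22% and 19% of all probes. Between lung and forestomach, 6 of 31 were higher in lung and 7 lower, against 19.3% and 18.3%. At the probe compared, some higher genes were well above background on no D0 array of the lower tissue. These were 6 of the 17, 7 of the 18 and 2 of the 6. Such a gene entered the test through its brighter tissue, which largely set its direction, and 14, 13 and 11 calls remain without them. Each tissue was run on slides of its own, so tissue and slide cannot be told apart.

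The fibril collagens separated liver from the other tissues. Col1a1, which encodes the main chain of type I collagen, had log2 ratios of -2.05, -2.68, -2.45, -2.23 and -1.92 in the lungs of D0 mice 1 to 5, -2.67, -3.05, -2.35, -2.04 and -2.33 in their forestomachs and -5.65, -5.25, -5.63, -5.51 and -6.53 in their livers. Every liver lay below every lung and every forestomach, and lung and forestomach overlapped. Lung was 10.9-fold above liver (log2 difference 3.45, SE 0.21, n = 5 in each tissue, limma adjusted p = 5.689e-20), and forestomach was 9.37-fold above it (adjusted p = 1.235e-18). Its partner chain Col1a2 was 9.67-fold higher in lung and 7.88-fold higher in forestomach than in liver. Col3a1, the reticular fibril collagen, was 9.78-fold higher in lung and 14.5-fold higher in forestomach. With arrays centred on their medians, the forestomach-liver difference was smaller, going from 3.23 to 1.83 on the log2 scale for Col1a1, from 3.86 to 2.43 for Col3a1 and from 2.98 to 1.58 for Col1a2, which then no longer passed (adjusted p = 0.05417). Between lung and forestomach the log2 difference was 0.22 for Col1a1 and 0.30 for Col1a2 (adjusted p = 0.3675 and 0.07924), and it was -0.57 for Col3a1, under the fold limit (adjusted p = 0.02121).

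Of the type V chains, which sit inside type I fibrils and set their width, Col5a1 and Col5a2 were also lowest in liver, and Col5a3 was not. Col5a1 had a log2 mean of -1.47 ± 0.67 (SD, n = 5) in forestomach, -2.30 ± 0.23 in lung and -3.23 ± 0.26 in liver, and all 3 steps passed both limits, although the step from lung to forestomach turned sign when arrays were centred on their medians. Col5a2 was at least 1.62-fold higher in lung than in liver (adjusted p = 1.496e-06), where no D0 array was well above background. The third chain, Col5a3, ran the other way: liver averaged -0.03 ± 0.12, forestomach -0.81 ± 0.51 and lung -2.59 ± 0.31, so that lung was 5.90-fold below liver (adjusted p = 1.134e-13) and 3.43-fold below forestomach (adjusted p = 7.376e-09), the latter turning sign with centred arrays. Forestomach was 1.72-fold below liver (adjusted p = 0.003614).

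Basement membrane chains were higher in lung than in liver for all 6 genes tested (against 24.9% of all probes). At the probes compared, Col4a3 and Col4a6 were well above background on no D0 liver array and so entered the test through lung. For Col4a6 this depends on the probe. Its other probe, the brightest in liver, was well above background on 19 of 19 liver arrays, and no tissue difference is given here for it. Col4a3, a chain of the specialised type IV network of the alveolus and the kidney glomerulus, had log2 ratios of 4.33, 4.57, 4.42, 3.97 and 4.45 in the D0 lungs, 0.06, 0.05, -0.03, -0.08 and 0.03 in the livers and -0.11, 0.26, 0.03, -0.11 and 0.12 in the forestomachs. Every lung was far above every other sample, and no liver or forestomach array was well above background. Lung was therefore at least 17.3-fold above liver (log2 difference 4.34, SE 0.12, limma adjusted p = 2.938e-34) and at least 16.1-fold above forestomach (adjusted p = 6.487e-33). These bounds rest on each channel after normalization and are open to dye bias, since no dyes were swapped. The reference spot of Col4a3 was well above background on 5 of 18 lung, 0 of 19 liver and 0 of 19 forestomach arrays. Its ratios therefore give no exact level relative to the reference. Col4a4, its neighbour and partner, had ratios of 3.85, 3.82, 3.83, 3.93 and 3.81 in the D0 lungs and was 12.7-fold above liver and 13.8-fold above forestomach. In the liver and forestomach only 2 of 5 D0 arrays each were well above background at this probe, so those folds are set against a level that was mostly at background. The broadly expressed chains Col4a1 and Col4a2 were 8.66-fold and 6.41-fold higher in lung than in liver and 3.03-fold and 3.06-fold higher in lung than in forestomach.

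Of the genes that attach epithelium, Col7a1 and Col17a1 had their highest means in forestomach, which is lined with stratified squamous epithelium. Col7a1, the anchoring fibril collagen, averaged -0.10 ± 0.25 in forestomach, -2.02 ± 0.29 in liver and -2.11 ± 0.31 in lung, 3.77-fold above liver (adjusted p = 2.994e-08) and 4.03-fold above lung (adjusted p = 1.198e-08, with the sign turned by centring). Liver and lung differed by 0.10 on the log2 scale (adjusted p = 0.7684). Col17a1, the hemidesmosome collagen of basal keratinocytes, had forestomach ratios of 1.76, 4.21, 0.84, 0.20 and 4.60 in mice 1 to 5, against 0.69, 0.33, 0.58, 0.43 and 0.57 in lung. It was very uneven among forestomachs, and mice 3 and 4 fell close to the lung range. Forestomach was 3.49-fold above lung (adjusted p = 0.0018), and at least 4.52-fold above liver, where no array was well above background. The reference channel at this probe was well above background on 17 of 19 forestomach arrays, 3 of 19 liver arrays and 0 of 18 lung arrays, although all of them held the same reference RNA, and its part in the ratios was not tested.

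The multiplexin Col18a1, the precursor of endostatin, was highest in liver, although well above background on every lung and forestomach array. Its ratios were 3.62, 3.48, 3.43, 3.49 and 3.51 in the D0 livers, -0.64, -0.61, -0.65, -0.75 and -0.27 in the lungs and -0.78, -1.16, -0.13, -0.15 and -1.31 in the forestomachs. All livers were above all other samples with almost no spread. Lung was 17.0-fold below liver (SE 0.15 on the log2 scale, adjusted p = 3.599e-29) and forestomach 18.5-fold below it (adjusted p = 1.397e-29). Col15a1, the other multiplexin, was dim: its Cy5 spot was well above background on 6 of 18 lung, 0 of 19 liver and 7 of 19 forestomach arrays, and the reference spot on 1, 0 and 0, so its ratios give no level relative to the reference. Col14a1, a collagen that coats fibril surfaces, ran from 3.52 to 4.32 in liver, from 2.55 to 3.19 in lung and from 0.35 to 4.87 in forestomach, and none of its 3 tissue differences passed the limits (adjusted p = 0.05859 for lung against liver). Col6a1, a chain of the beaded filaments that surround cells, was 2.94-fold higher in lung and 2.44-fold higher in forestomach than in liver, the latter turning sign with centred arrays. The membrane-spanning Col23a1 averaged 3.08 in lung and was higher there than in liver (adjusted p = 8.268e-11), by an amount not given here because no D0 liver array was well above background. It was 4.92-fold higher in lung than in forestomach, where 2 of 5 D0 arrays were well above background. Among the collagens lower in lung, Col20a1, a fibril-associated type, was 1.87-fold below liver (adjusted p = 1.092e-05) and 2.26-fold below forestomach (adjusted p = 9.836e-08), both of which turned sign with centred arrays.

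These differences rest on the authors' LOWESS ratios, which hold the median of all tested probes near 0. Centring each array on its median moved that median to 0.62 for lung minus liver, 0.95 for lung minus forestomach and -0.17 for forestomach minus liver. It turned the sign of 6 of the 13 lung-forestomach differences past both limits, namely Col5a3, Col5a1, Col8a1, Col20a1, Col4a6 and Col7a1. It also turned Col20a1 for lung against liver, and Col16a1 and Col6a1 for forestomach against liver. The other 44 of the 53 differences past both limits kept their sign under this and 2 other normalizations of the scanner signals, among them all of those for Col1a1, Col3a1, Col4a1 to Col4a4, Col17a1 and Col18a1. A kept sign was not always a kept difference: for forestomach against liver, centring took Col4a1 from 1.52 to 0.50 and Col4a2 from 1.07 to 6e-04 on the log2 scale, below the fold limit.

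**Figure D1:**
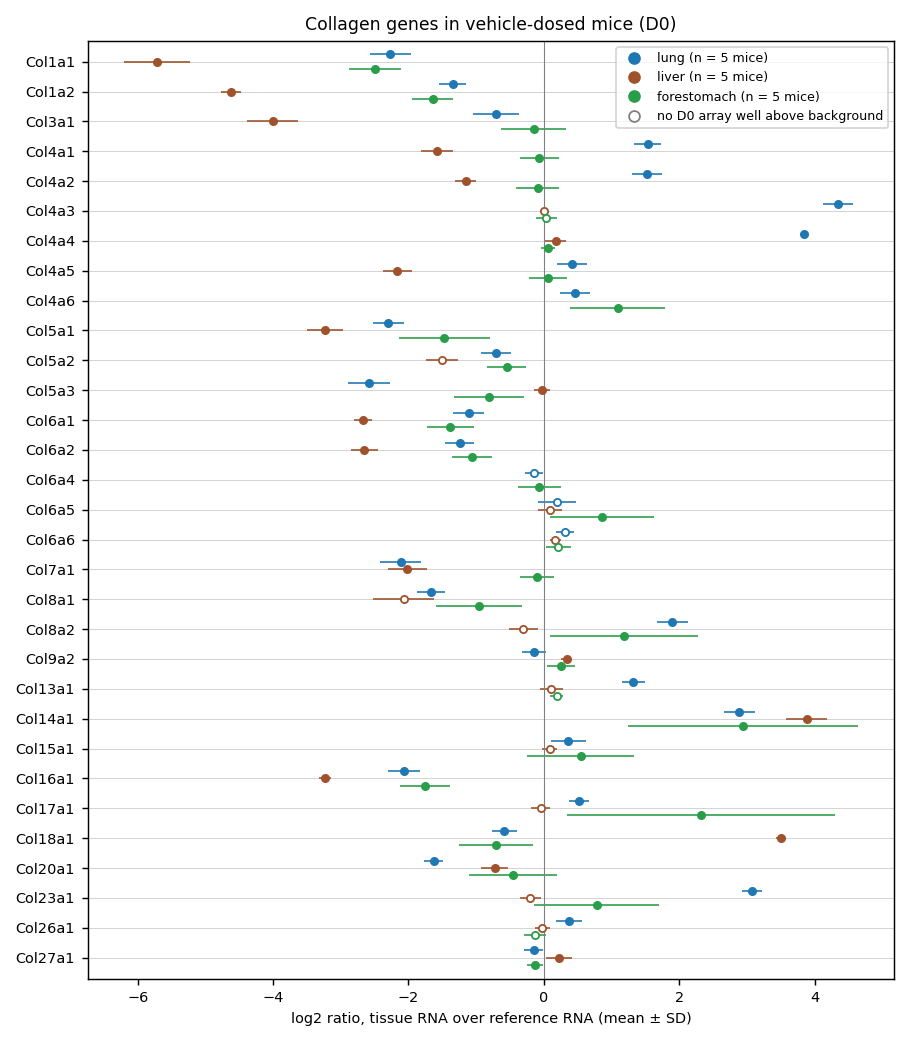
Log2 ratio of Cy5 over Cy3 for each tested collagen gene in the D0 lungs, livers and forestomachs, as mean and SD over 5 mice, with open points where no D0 array was well above background. Col4a3 and Col4a4 sit near 4 in lung and near 0 elsewhere, Col18a1 is above 3 in liver alone, and Col1a1 and Col3a1 are lowest in liver. Points of Col4a6 and Col6a4 in liver are left out because another probe was brightest there, and centring arrays on their medians turns the lung-forestomach order of Col5a3 and Col7a1.

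The dose comparison asked whether chrysene shifted these genes within each tissue. No collagen gene passed both limits by limma at any dose or in the dose trend in any tissue. Among all probes, 0.127% passed at D3 in lung, 0.00727% in forestomach and 0% in liver. The share passing was 0% for D1 and for D2 in each tissue, and for the trend it was 0.168%, 0.04% and 0% in lung, forestomach and liver. Genes with an unadjusted p of 0.05 or less are therefore counted beside the same share of all probes, as nominal differences, and none is a called change. On a slide, the column followed the dose in nearly all arrays (in lung, all 5 D0 arrays and no dosed array were in column 1), so in lung column and dosing cannot be told apart.

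**Figure D2:**
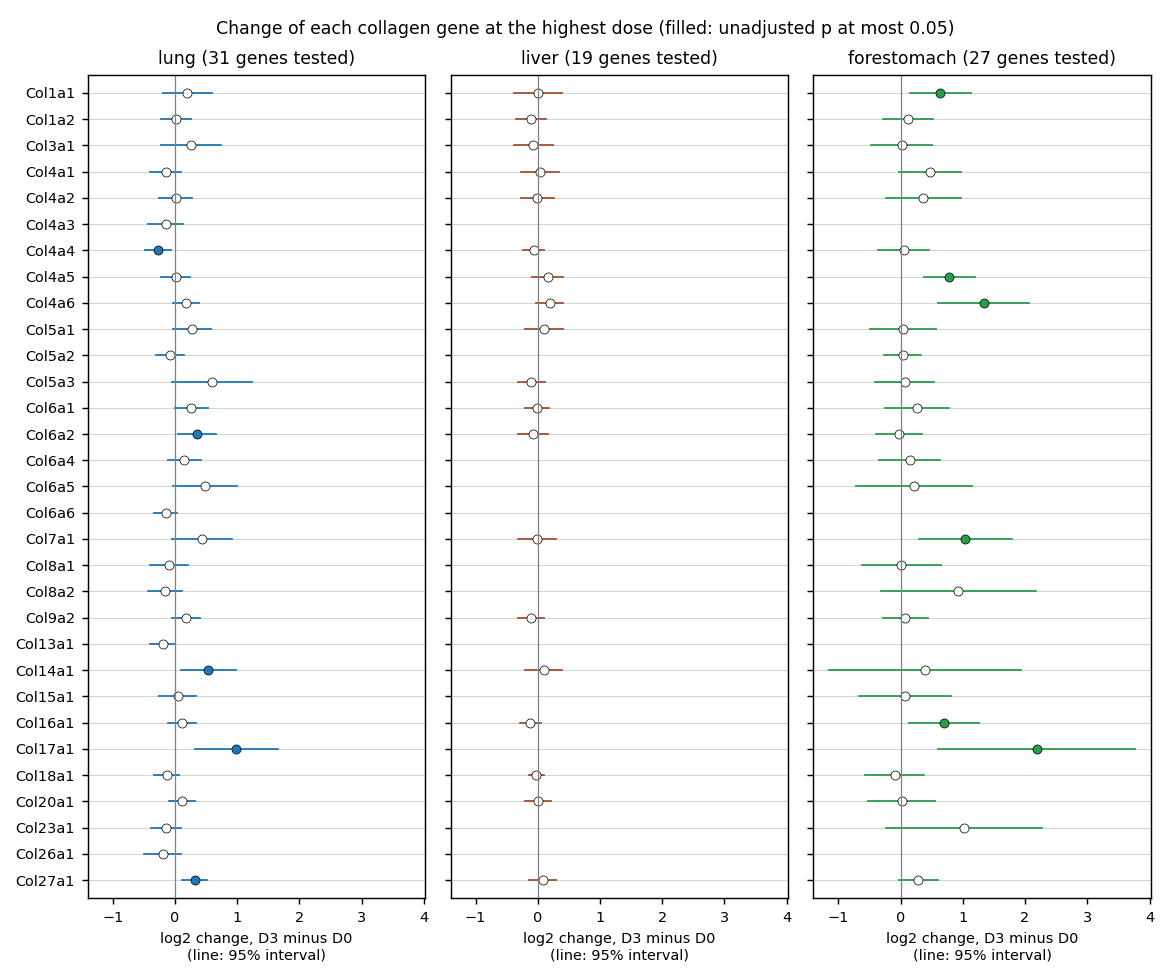
Log2 change at D3 against D0 for each tested collagen gene in the 3 tissues, with 95% confidence intervals from limma and filled points at an unadjusted p of 0.05 or less. Forestomach values reach 2.19 for Col17a1 and are above 0 for 25 of 27 genes, lung runs from -0.27 to 0.99, and liver stays between -0.12 and 0.19.

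In forestomach at D3, the collagen genes with the highest values were Col17a1 (2.19), Col4a6 (1.34), Col7a1 (1.04), Col23a1 (1.02), Col8a2 (0.92) and Col4a5 (0.78). The 6 collagen genes nominally higher were Col4a5, Col4a6, Col7a1, Col17a1, Col1a1 and Col16a1 (6 of 27, against 5.45% of all probes), and 0 were lower (3.79%). Of the 27 genes, 25 had a change above 0, against 49.7% of all probes, and their median was 0.21 against -0.0016 for all probes. Within slide 1 it was 25 of 27 with a median of 0.55 (50.9% of all probes above 0), within slide 2 it was 20 with 0.26 (49.4%) and within slide 3 it was 15 with 0.06 (48.4%). By class, the median was 1.60 for 2 membrane-spanning genes, 1.04 for the 1 anchoring fibril gene, 0.47 for 5 basement membrane genes and 0.47 for 2 hexagonal network genes. It was 0.23 for 4 fibril-associated genes, 0.18 for 4 beaded filament genes, 0.06 for 7 fibrillar genes and -0.02 for 2 multiplexins. None reached an adjusted p of 0.05, and Col18a1 (-0.10) and Col6a2 (-0.03) were the 2 below 0. The other tested probe of Col18a1 had 0.10, so its direction differs by probe.

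Col4a5 and Col4a6 encode type IV chains that assemble together beneath squamous epithelium and around smooth muscle, and their genes stand head to head on chromosome X with 0 genes between them. The start regions of these 2 genes, and of Col7a1 and Col17a1, are shown because these 4 had the smallest p in forestomach at D3. They are RefSeq sequences of GRCm38.p6, up to 250 bases before the start read 5′ to 3′, without the bases inside an annotated gene. Capitals mark a CCAAT box (CCAAT, printed as ATTGG where it lies on the other strand), a GC box (GGGCGG) or a TATA box (TATAAA), each searched on both strands together with GCGTG, the core to which the aryl hydrocarbon receptor binds, and TGANTCA, the AP-1 site.
Col4a5, chrX:141475169-141475369, plus strand: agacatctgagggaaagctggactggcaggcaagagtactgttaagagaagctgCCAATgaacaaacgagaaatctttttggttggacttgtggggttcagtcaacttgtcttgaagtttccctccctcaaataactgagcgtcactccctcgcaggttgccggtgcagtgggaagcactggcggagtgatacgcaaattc
Col4a6, chrX:141474096-141474326, minus strand: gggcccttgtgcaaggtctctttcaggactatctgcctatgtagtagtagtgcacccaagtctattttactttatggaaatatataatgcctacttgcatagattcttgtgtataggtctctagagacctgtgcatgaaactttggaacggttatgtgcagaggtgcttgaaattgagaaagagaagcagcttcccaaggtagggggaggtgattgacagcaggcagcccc
Col7a1, chr9:108953336-108953585, plus strand: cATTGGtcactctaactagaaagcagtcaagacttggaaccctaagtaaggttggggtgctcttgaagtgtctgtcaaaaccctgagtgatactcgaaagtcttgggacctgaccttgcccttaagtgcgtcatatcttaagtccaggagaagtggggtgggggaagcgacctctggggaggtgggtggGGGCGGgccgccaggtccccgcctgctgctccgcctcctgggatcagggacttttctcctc
Col17a1, chr19:47692043-47692292, minus strand: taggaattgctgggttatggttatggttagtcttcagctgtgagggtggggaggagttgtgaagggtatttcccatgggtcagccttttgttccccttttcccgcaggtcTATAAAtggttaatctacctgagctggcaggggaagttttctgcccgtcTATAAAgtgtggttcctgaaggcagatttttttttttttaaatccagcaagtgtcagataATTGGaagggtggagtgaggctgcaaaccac
None of these 4 stretches held GCGTG or TGANTCA, and the Col4a6 stretch held none of the motifs. Over the 37 promoters of the 34 collagen genes in the table, 8 held GCGTG, against 28.2% of all 32851 promoters, each searched over the same 250 bases, 22 held GGGCGG (32.7% of all), 13 CCAAT (33.8%), 5 TATAAA (12.4%) and 1 TGANTCA (6.75%). A match describes letters, not a binding site.

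Col4a5 had forestomach ratios of 0.08, 0.09, 0.06, -0.36 and 0.44 in D0 mice 1 to 5 and of 0.92, 1.09, 0.46, 0.61 and 1.14 in D3 mice 16 to 20. All D3 mice were above all D0 mice, the lowest D3 mouse narrowly so. Only 0.865% of all probes were higher in this way without overlap. The change was 0.78 on the log2 scale (SE 0.20, 95% confidence interval 0.37 to 1.19, limma adjusted p = 0.1627).

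Col4a6 was 0.96, 1.44, 0.89, 0.12 and 2.03 at D0 and 2.15, 2.61, 2.18, 2.07 and 3.13 at D3. These groups did not overlap either, but mouse 5 of D0, at 2.03, lay just below mouse 19 of D3, at 2.07. The change was 1.34 (SE 0.35, interval 0.61 to 2.07, adjusted p = 0.1757), and within slides 1, 2 and 3 it was 0.86, 1.41 and 1.67. A second, dimmer probe of Col4a6, well above background on 9 of the 19 forestomach arrays, had a change of 0.19 (SE 0.21, adjusted p = 0.854).

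Col17a1 had ratios of 1.76, 4.21, 0.84, 0.20 and 4.60 at D0, at 4.52, 3.16, 2.66, 2.41 and 5.03 at D1, at 4.16, 3.88, 3.55 and 3.01 at D2 and at 4.34, 4.94, 3.25, 4.36 and 5.65 at D3. D0 was split, with mice 2 and 5 as high as dosed mice and mice 1, 3 and 4 below every dosed mouse, so D0 and D3 overlapped. The D3 change was 2.19, or 4.55-fold (SE 0.75, interval 0.60 to 3.77, adjusted p = 0.3192). Within slide 1, which holds mice 2 and 5, it was 0.60, and within slides 2 and 3 it was 2.88 and 2.73. The share of probes well above background was 48.8% and 48.6% for the D0 arrays and 49.4% and 45.7% for the D3 arrays of slide 1. It was 23.4% against 32.1% and 33.2% on slide 2, and 24.2% and 18.1% against 24.5% on slide 3. Mouse 4 of D0, with the 18.1%, also had the lowest D0 ratio of Col4a5, Col4a6, Col17a1 and Col7a1, and the part of array brightness in these changes was not tested. Col7a1 was -0.15, 0.01, 0.11, -0.52 and 0.03 at D0 and 0.05, 0.93, 0.60, 1.03 and 2.07 at D3, with a change of 1.04 (SE 0.36, adjusted p = 0.3192), which was 1.53, 0.64 and 0.80 within slides 1, 2 and 3. Its D3 mice were above the D0 range except mouse 16. The keratinocyte marker list of the same arrays ran from 4.56 to 6.06 at D0 and from 5.24 to 6.27 at D3, the fibroblast list from 0.88 to 2.46 and from 1.86 to 2.40, the smooth muscle list from 4.02 to 5.27 and from 4.77 to 5.88, and the glandular stomach list from 0.75 to 7.01 and from 0.52 to 7.05. All 6 keratinocyte genes were well above background on each of these arrays, and at the lowest 2 of 8 glandular genes were. The adipocyte list was 5.25 and 5.04 in D0 mice 2 and 5 and 0.13, 0.18 and 0.15 in D0 mice 1, 3 and 4. It ran from 0.16 to 3.50 at D3. The hepatocyte list ran from 0.11 to 4.51 at D0 and from 0.77 to 4.30 at D3, the hepatic stellate list from 0.38 to 1.22 and from 0.66 to 1.71. On each slide, the smooth muscle and hepatic stellate lists were higher in every D3 mouse than in every D0 mouse. The other lists were not ordered so on every slide. The part of tissue make-up in these values was not tested.

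**Figure D3:**
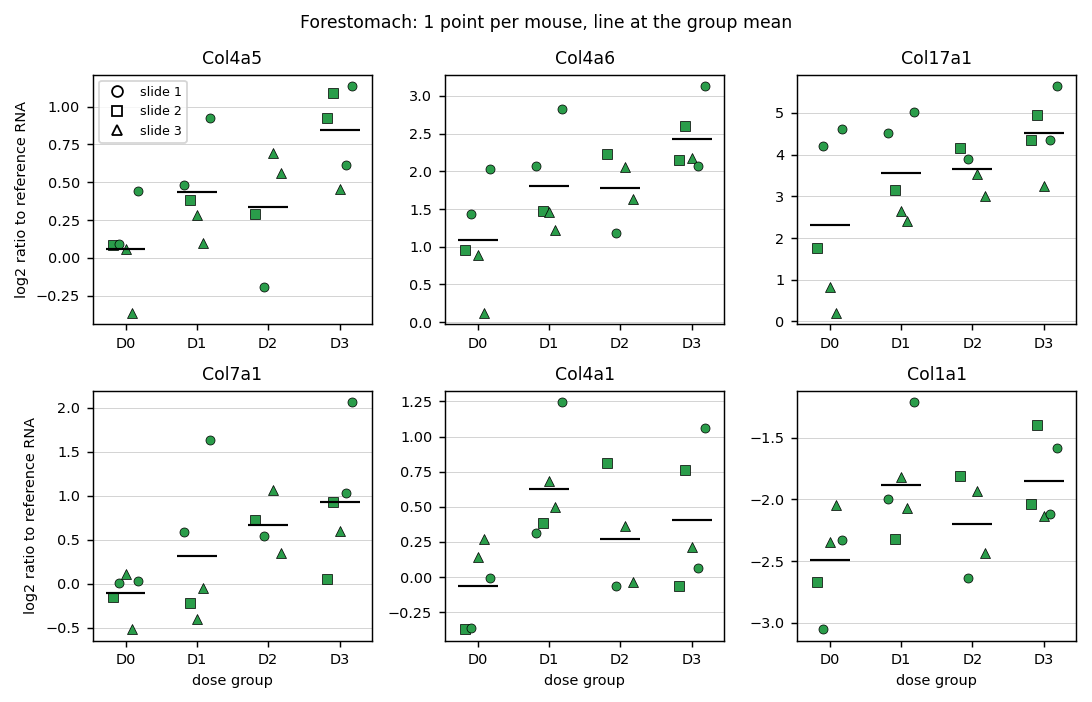
Forestomach log2 ratios of Col4a5, Col4a6, Col17a1, Col7a1, Col4a1 and Col1a1 for each mouse at D0, D1, D2 and D3, with a line at the group mean and the symbol showing the slide. Col4a5 and Col4a6 at D3 lie above all D0 mice, whereas Col17a1 at D0 is split between values near 0 to 2 and values above 4.

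Stromal collagens in forestomach had smaller values. Col1a1 was -2.67, -3.05, -2.35, -2.04 and -2.33 at D0 and -2.03, -1.39, -2.14, -2.12 and -1.58 at D3, a change of 0.64 (SE 0.23, adjusted p = 0.3483), with mouse 4 of D0 inside the D3 range. Its partner Col1a2 had a change of 0.12 (interval -0.28 to 0.53), Col3a1 of 0.02 (interval -0.47 to 0.50), Col5a1 of 0.04, Col5a2 of 0.04, Col14a1 of 0.38 (interval -1.16 to 1.93, with -0.15 at its dimmer probe) and Col15a1 of 0.07. Col4a1 and Col4a2 had values of 0.47 (adjusted p = 0.5721) and 0.36 (adjusted p = 0.7757), and Col6a1 of 0.26. Col16a1, which bridges fibrils and basement membrane, had 0.69 (SE 0.27, adjusted p = 0.3839) at its brightest probe. Its other tested probes, well above background on 5 and 10 forestomach arrays, had 0.05 and 0.13 (adjusted p = 0.9622 and 0.9716). At D1, Col4a1 and Col1a1 were nominally higher (2 of 27, against 2.26% of all probes), with changes of 0.69 and 0.61 and adjusted p = 0.9999, and 0 were lower (1.91%). Col4a1 did so without overlap with D0 (0.352% of all probes), and 25 of 27 genes had a D1 change above 0 (50.2% of all probes). At D2, 0 were nominally higher and 0 lower (3.27% and 4.27%), and 18 of 27 had a change above 0 (47.1% of all probes). The D3 values of Col4a5, Col4a6, Col17a1 and Col7a1 were higher than their D1 values of 0.37, 0.72, 1.23 and 0.41 and their D2 values of 0.28, 0.69, 1.33 and 0.77. For Col4a5 and Col4a6 the D2 value was below the D1 value.

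3 choices moved the forestomach result across the limits. With array weights, Col4a6 (1.45, adjusted p = 0.03179) and Col4a5 (0.86, adjusted p = 0.04156) passed both limits. Without the 7 arrays of slide 1, an alternative chosen after seeing the data, Col4a6 (1.65), Col17a1 (3.24) and Col4a5 (0.90) passed, with adjusted p values of 0.01727, 0.01727 and 0.04323. Fs, the test named in the study's methods, called Col4a6, Col17a1 and Col4a5 as well, and 310 of 27489 probes in all. The shares of all probes passing with array weights and without slide 1 are not given here, so those calls have no background beside them. In the opposite direction, centring each array on its median left no nominal difference among collagen genes.

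In lung, 4 of 31 collagen genes were nominally higher at D3 (against 6.05% of all probes) and 1 was lower (10.1%). The higher ones were Col27a1, a fibrillar collagen of cartilage, Col17a1, Col14a1 and Col6a2, and the lower one was Col4a4. Col17a1 was 0.69, 0.33, 0.58, 0.43 and 0.57 at D0 and 0.97, 2.37, 0.63, 2.77 and 0.80 at D3. Its 2 high values are those of mice 17 and 19, whose slices also had the highest skeletal muscle and keratinocyte lists. The change was 0.99 (SE 0.32, adjusted p = 0.1661), and 0.28 without these mice (adjusted p = 0.496).

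Col14a1 had ratios of 3.19, 2.55, 2.88, 2.93 and 2.89 at D0 and of 3.21, 4.06, 3.11, 3.59 and 3.16 at D3, again highest in mice 17 and 19. Its change of 0.54 (SE 0.21, adjusted p = 0.2384) was 0.27 without them. A second Col14a1 probe, well above background on 18 lung arrays, had a change of 0.47 with all mice (SE 0.12, adjusted p = 0.1063). Col1a1 and Col3a1 had changes of 0.20 (interval -0.19 to 0.59) and 0.26 (interval -0.23 to 0.74), and of -0.10 and -0.09 without these mice. Col27a1 had a change of 0.28 (adjusted p = 0.448) without them and 0.31 with them (SE 0.10, adjusted p = 0.1574). Its values were -0.16, -0.37, 0.01, -0.10 and -0.12 at D0 and -0.10, 0.29, 0.11, 0.16 and 0.38 at D3, with mouse 16 of D3 among the D0 mice.

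Col4a4, the alveolar chain, was 3.85, 3.82, 3.83, 3.93 and 3.81 at D0 and 3.44, 3.61, 3.85, 3.27 and 3.71 at D3. All D3 mice but mouse 18 were below every D0 mouse. The change was -0.27 (SE 0.10, adjusted p = 0.2021), and -0.18 without mice 17 and 19 (adjusted p = 0.551). Its 2 other probes also ran lower at D3, by -0.50 and -0.70 (adjusted p = 0.171 and 0.0731), and the last of these was 2.08 to 3.15 at D3 against 3.30 to 3.69 at D0, without overlap (1.94% of all probes were lower without overlap). In the dose trend that probe had a fitted change of -0.68 from D0 to D3 and passed both limits (adjusted p = 0.0447), whereas the brightest probe did not. Col4a3, its partner, had a change of -0.15 (interval -0.43 to 0.13). The alveolar type 2 list was 5.91 to 6.47 at D0 and 5.99 to 6.47 at D3. The endothelial list was lowest in mice 17 and 19, at 5.01 and 4.95 against at least 5.22 in the other lungs, and the smooth muscle list was highest in them, at 2.46 and 2.10 against at most 1.23. The mesothelial list ran from -2.84 to 0.41 at D0 and from -0.31 to 0.90 at D3, the fibroblast list from 1.14 to 1.85 and from 1.59 to 2.71. The adipocyte list ran from 0.93 to 3.27 at D0 and from 1.80 to 4.93 at D3, with 4.93 and 4.87 in mice 17 and 19. The hepatic stellate list, which names liver cells, was 0.42 to 0.84 at D0 and 0.87 to 1.07 at D3, with 2 of its 4 genes well above background on each of these lungs, and the part of these cells in the lung values was not tested.

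**Figure D4:**
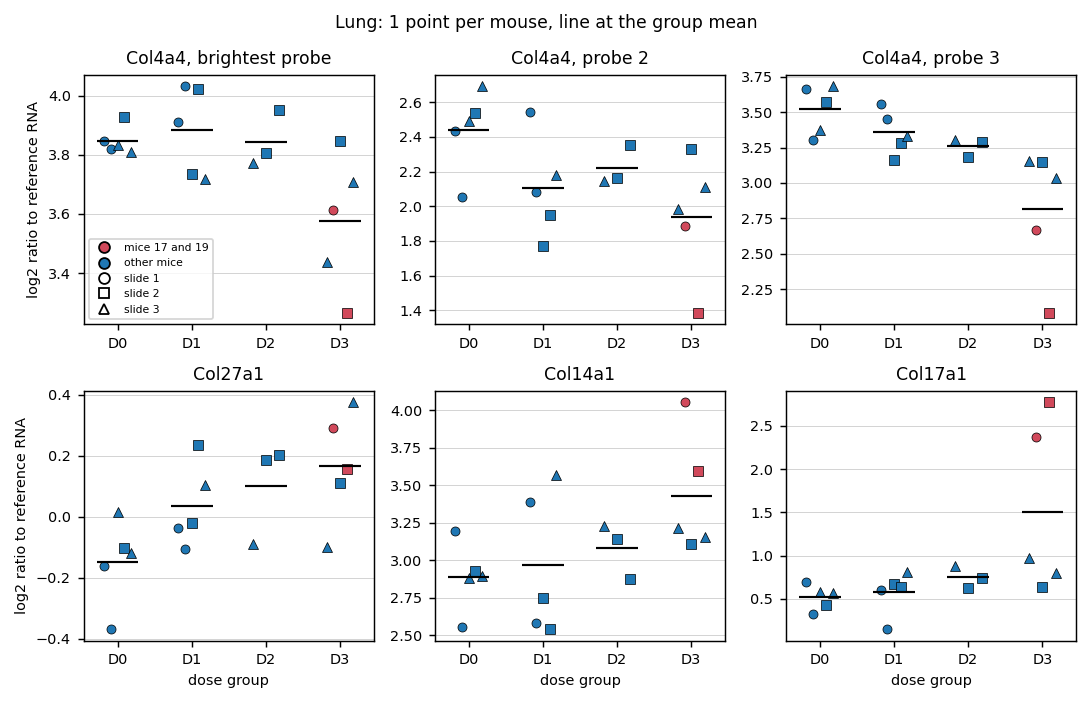
Lung log2 ratios of the 3 probes of Col4a4 and of Col27a1, Col14a1 and Col17a1 for each mouse at D0, D1, D2 and D3, with a line at the group mean, the symbol showing the slide and mice 17 and 19 in red. These 2 mice lie above the other D3 mice in Col17a1 and Col14a1, and 4 of the 5 D3 mice lie below D0 in the brightest Col4a4 probe.

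The other lung collagens had D3 values between -0.20 and 0.59, and over all 31 genes 20 were above 0 (42.5% of all probes), with a median of 0.11 against -0.03 for all probes. Mice 17 and 19 were the highest of the D3 lungs: the mean log2 ratio over the 31 genes was 0.42 and 0.28 in these mice, 0.05 to 0.15 in the other D3 lungs and -0.04 to 0.17 at D0. Without them 16 of 31 were above 0 (50.6% of all probes), with a median of 0.0029. At D1 and D2, 24 and 15 of 31 were above 0 (51.3% and 49.9% of all probes). The change was 0.02 for Col1a2, -0.15 for Col4a1, 0.01 for Col4a2, 0.27 for Col5a1, -0.08 for Col5a2, 0.27 for Col6a1, 0.44 for Col7a1, 0.04 for Col15a1 and -0.13 for Col18a1, none of them nominally different. At D1, 1 of 31 (Col6a1, against 3.05% of all probes) was nominally higher and 0 were lower (2.84%), and at D2 it was 1 (Col27a1, against 2.8%) and 0 (3.32%). The lung trend gave 4 higher (6.36% of all probes) and 2 lower (11%). In forestomach it gave 6 higher (5.14%) and 0 lower (4.04%).

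In liver, collagen genes stayed close to their D0 levels. At D3, 0 of 19 were nominally higher and 0 lower (2.47% and 2.33% of all probes), and the changes ran from -0.12 for Col16a1 to 0.19 for Col4a6. The change was 0.01 for Col1a1 (interval -0.38 to 0.39), -0.11 for Col1a2, -0.07 for Col3a1, 0.04 for Col4a1, -0.01 for Col4a2, 0.10 for Col5a1, -0.02 for Col6a1, -0.02 for Col7a1 and 0.09 for Col14a1. For Col18a1 it was -0.02 with a narrow interval of -0.14 to 0.09, so that a 1.5-fold change either way lies outside it. All adjusted p values were 0.9998. The values nearest to the threshold belonged to Col4a6, Col16a1 and Col4a5. At D1, Col5a3 stood out: its D1 mice lay between -0.73 and -0.33, below all D0 mice at -0.17 to 0.10, a lack of overlap found in 0.266% of all probes. The change of -0.46 (SE 0.10, adjusted p = 0.6187) was not seen at D2 (-0.09) or D3 (-0.11). Col4a4 was the other gene nominally lower at D1 (2 of 19, against 1.78%), with 0 higher (1.83%), and Col27a1 was the 1 gene higher at D2 (against 2%), with 0 lower (1.79%).

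Whether the D3 change differed between tissues was tested directly in 1 limma model of all 56 arrays. No collagen gene passed both limits for any of the 3 pairs of tissues (0% to 0.495% of all probes in either direction). The genes closest to the limits were Col4a6, with a forestomach change 1.33 above that of liver (adjusted p = 0.07857) and 1.16 above that of lung (adjusted p = 0.07398), and Col4a5, 0.77 above lung (adjusted p = 0.06101). For Col17a1, forestomach was 2.24 above liver (adjusted p = 0.1877). The liver comparisons of Col4a6 and Col17a1 rest on probes well above background on no D0 liver array. For Col17a1 this held for every liver array. These 2 differences therefore largely restate the forestomach changes. The liver change of 0.19 given above for Col4a6 belongs to its other probe. Nominally, 7 of 27 collagen genes differed between forestomach and liver (9.91% of all probes), 6 of 31 between lung and forestomach (12.9%) and 3 of 31 between lung and liver (5.25%).

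Chains that share a trimer, genes that lie side by side, and Col1a1 with Col3a1, which are neither but lead the fibril collagens, were then compared over mice as deviations from dose-group means. Pearson's r and Spearman's rho were computed for 24 relations with 100000 permutations within dose groups and Benjamini-Hochberg adjustment over them. Col4a1 and Col4a2, which lie on opposite strands of chromosome 8 with overlapping spans and form 1 trimer, varied together in each tissue: r was 0.93 over 18 lungs (rho 0.96, adjusted permutation p = 0.00036), 0.86 over 19 livers (rho 0.89, adjusted permutation p = 8e-05) and 0.93 over 19 forestomachs (rho 0.84, adjusted permutation p = 0.00018). Without the 2 mice farthest from the median, r was 0.92, 0.81 and 0.89, and within slides it stayed between 0.78 and 0.97. Col1a1 and Col3a1 had r of 0.94 in lung and in liver and 0.59 in forestomach (adjusted permutation p = 8e-05, 0.000192 and 0.03207), with 0.90, 0.86 and 0.48 without 2 mice. Col1a1 and Col1a2, the chains of type I, had r of 0.84 in lung and 0.89 in forestomach (adjusted permutation p = 0.0005486 and 8e-05) and 0.47 in liver (adjusted permutation p = 0.06186). Col6a1 and Col6a2 had r of 0.83, 0.71 and 0.70 in lung, liver and forestomach (adjusted permutation p = 0.0009, 0.00536 and 0.00672), but within slides r ran down to -0.24 in liver and 0.07 in forestomach.

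Other pairs were looser. Col4a3 and Col4a4 in lung had r of 0.20 (rho 0.09, adjusted permutation p = 0.6571), and 0.48 with slide also removed. Col3a1 and its neighbour Col5a2 had 0.59 in lung (adjusted permutation p = 0.04854), which was -0.63 within slide 2 and 0.68 within slide 3, and 0.43 in forestomach (adjusted permutation p = 0.2162). The same gene measured in different tissues of a mouse was not correlated past the threshold: over 9 relations for Col1a1, Col3a1 and Col4a1, r ran from -0.09 to 0.39 and adjusted permutation p from 0.2189 to 0.9261. In all, 12 of 15 relations within a tissue and 0 of 9 between tissues had an adjusted permutation p of at most 0.05 on r. On rho it was 10 of 15 and 0 of 9, with Col6a1 and Col6a2 in forestomach (adjusted permutation p = 0.07804) and Col3a1 and Col5a2 in lung (adjusted permutation p = 0.08647) among those above the limit. The smallest p that these permutations can give is 1e-05.

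**Figure D5:**
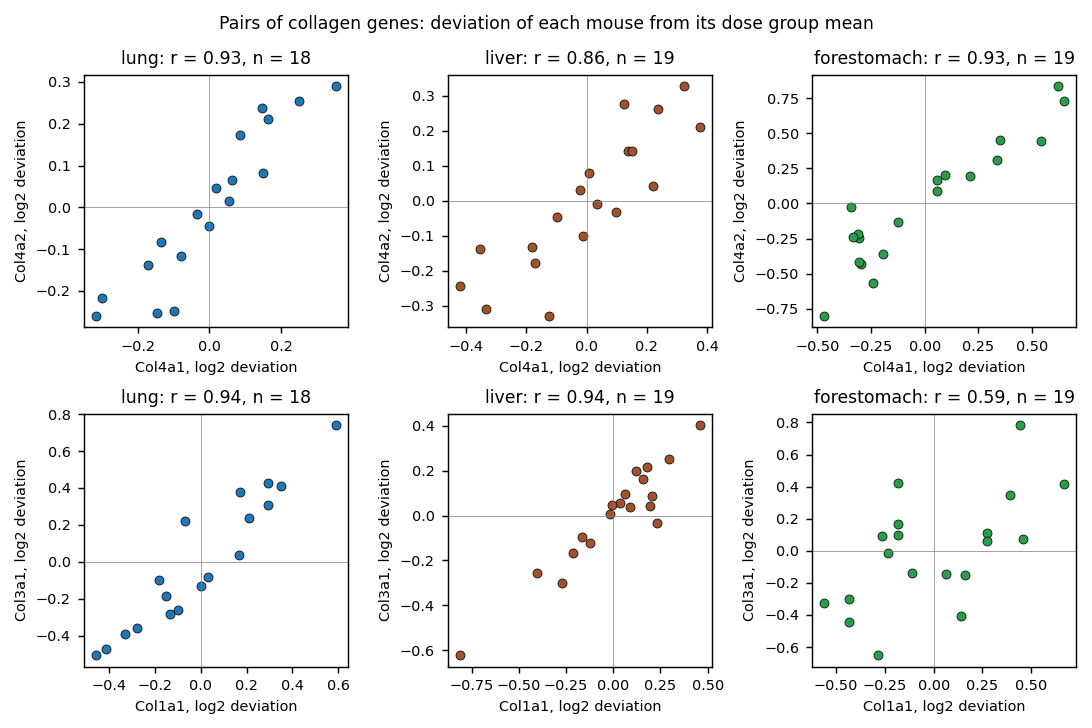
Deviations of log2 ratios from the dose-group mean for Col4a1 with Col4a2 (upper panels) and Col1a1 with Col3a1 (lower panels) in each tissue, 1 point per mouse. Col4a1 and Col4a2 lie along a line with r of 0.93 in lung, 0.86 in liver and 0.93 in forestomach, and Col1a1 and Col3a1 scatter most in forestomach, with r of 0.59.

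Genes that make, join or break down collagen were read from fixed lists beside the collagens themselves. None of them passed both limits at D3 in any tissue. In forestomach, 3 of 19 biosynthesis genes were nominally lower (against 3.79% of all probes), P4hb and P4ha2, subunits of the enzyme that hydroxylates prolines in the chains, and Ppib, a folding helper. P4hb had a change of -0.54 (adjusted p = 0.3398) and Ppib of -0.55 (adjusted p = 0.3295). Among 13 fibril partners, 3 were nominally higher (5.45% of all probes), Postn, Tnxb and Sparc, a collagen-binding matrix protein with a change of 0.72 (SE 0.20, adjusted p = 0.2124). In lung, 5 of 13 fibril partners were nominally higher (6.05% of all probes), Lum, Dcn, Fbn1, Tnxb and Fmod, a small proteoglycan on fibrils, with 0.50 (SE 0.15, adjusted p = 0.1544), and of 20 biosynthesis genes 2 were nominally higher (6.05%) and 1 lower (10.1%), with a list median of -0.0026. The higher ones were P3h2, a prolyl hydroxylase of basement membrane collagen, with 0.38 (SE 0.09, adjusted p = 0.08835) and Sec23a, a coat protein of export vesicles, with 0.21, and the lower one was P4ha2, with -0.41 (adjusted p = 0.1738). Lum and Dcn also belong to the fibroblast list, which was 2.71 and 2.49 in mice 17 and 19 and at most 2.03 in the other lungs. Without these mice, a choice made after seeing the data, 1 of 13 fibril partners was nominally higher (4.95% of all probes), Fmod with 0.33 (adjusted p = 0.4307), and P3h2 had 0.37 (adjusted p = 0.2805). The remaining lists held few nominal differences at D3. In lung, the crosslinking enzyme Lox had -0.35 (1 of 11 processing and crosslinking genes, adjusted p = 0.1563), the collagen receptor chain Itga11 had 0.55 and its partner Itgb1 -0.22 (1 of 8 receptors each way, adjusted p = 0.261 and 0.2561), and Smad3, which carries TGF-beta signals, had 0.31 (1 of 12 TGF-beta signalling genes, adjusted p = 0.1939). In forestomach, Tgfbi, a matrix protein induced by TGF-beta, had 0.74 (1 of 12, adjusted p = 0.4544), and the processing, receptor and breakdown lists held no nominal difference. In liver, no list held a nominal difference at D3; Pcolce2 had -0.20 and Ctsk 0.14, both with adjusted p = 0.9998.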

How the data were processed

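Lung, liver and forestomach RNA of the chrysene-treated and control mice was measured on 2-colour arrays, and the labels gave each array its group, dose and mouse. Mice are the replicates, and the same mouse gave its tissues. Per the file headers, the deposited scanner files hold median intensity values quantified by Feature Extraction 10.7.3.1, with flags of 0 or 1 for spots well above background, as the authors' scanner software set them. The authors deposited log2 ratio values (Cy5 over Cy3) for each probe on each array, which the methods say were LOWESS-normalized with the background not subtracted. Against loess ratios computed here from the scanner signals, this table had r of 0.977 to 0.998 and a slope of 0.953 to 0.996 per array, in the same direction, and its column medians lay between -0.046 and -0.020.

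Probes were named through RefSeq accessions of GRCm38.p6 (26413 of 55681 probes, 47.4%). The brightest probe in Cy5 stood for a gene. Tests used limma 3.58.1 in R 4.3.3 (lmFit and eBayes, two-sided) on all probes with a Cy5 signal well above background on at least 3 arrays of the tissue, after control spots and non-uniform spots were left out, with Benjamini-Hochberg adjustment over all probes tested. A call needed an adjusted p of at most 0.05 and a fold change of at least 1.5. The study's methods name MAANOVA, which was replaced by limma with the Fs statistic as an alternative. Python 3.11.15 with scipy 1.17.1 gave the correlations. The D3 dose fits and the D0 fit of lung against liver were tested on simulated data. Of simulated 1.5-fold changes at D3, 40% were recovered in lung, 50% in liver and 12% in forestomach. Of 2-fold changes it was 94%, 92% and 70%. The D0 fit recovered 44% and 96%. The named genes were 14 collagens always, the 3 smallest p at D3 per tissue and the largest D0 differences. The members and lists were chosen with earlier results of these data known. The precision is limited by the number of arrays, 3 to 5 per group.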

Additional observations from a re-analysis of the deposited data

Results flagged for a closer look

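In 4 of the 101 groups of collagen values examined, 1 sample lay far from the rest of its group by Dixon's test, which chance gives in about 1 in 20 groups. In liver at D0, mouse 5 had a Col4a1 log2 ratio of -2.0, and the next lowest mouse had -1.55. In liver at D3, mouse 20 had a Col14a1 ratio of 4.41, and the next highest had 3.92. In forestomach at D1, mouse 10 had a Col16a1 ratio of -0.57, and the next highest had -1.47. In forestomach at D2, mouse 12 had a Col16a1 ratio of -1.91, and the next lowest had -1.28. Mice 10 and 12 were both on slide 1, where more probes were well above background. The part of the slide was not tested.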

How the results depend on the processing

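Most counts of collagen genes past both limits, and of those nominally higher at D3, stayed within 1.5 times their value under the other settings, and the exceptions follow. The nominal counts at D1 and D2 were recomputed only with the Fs statistic, which gave 0 in place of 1 in lung at D1, 4 in place of 2 in liver at D1, 0 in place of 1 in liver at D2 and 3 in place of 0 in forestomach at D2. In lung at D3, the count of genes higher at an unadjusted p was 4 and became 10 with arrays centred on their medians, 7 with slide as a block, 2 with array weights, 2 without mice 17 and 19 (where the lower ones went from 1 to 2) and 2 to 9 when 1 mouse was left out. Without mice 17 and 19, 4.95% of all probes were nominally higher and 4.94% lower. The shares of all probes under the other settings are not given here, so those nominal counts have no background beside them. In lung, counting any probe of a gene gave 1 gene with a trend. In forestomach at D3, where 0 genes passed both limits, 2 did with array weights, 3 with the Fs statistic and 3 without slide 1, and the trend gave 3 and 3. The 6 forestomach genes at an unadjusted p became 0 with centred arrays and 2 with a filter on every array. At D0 in lung against liver, the 17 higher genes became 9 with a filter on every array. In lung against forestomach, the 6 higher and 7 lower became 18 and 2 with centred arrays and 2 and 1 with that filter, since fewer genes were tested. In forestomach against liver, the 18 higher became 6 and 9 and the 2 lower became 1 with the filter. The share of higher calls over all probes went from 54.1% to 87.8%, from 51.4% to 95.3% and from 53.7% to 22.9% when arrays were centred, in lung against liver, lung against forestomach and forestomach against liver. Centring also reversed Col20a1 in lung against liver (0.39) and, in lung against forestomach, Col7a1 (0.05455) and Col5a3 (0.09287), and Col1a2 in forestomach against liver (1.58, adjusted p = 0.05417) no longer passed. The cause was not tested. For the difference in D3 change, leaving out 1 mouse gave 0 to 2 genes for lung against forestomach and for forestomach against liver, the highest without mouse 5 and, for lung against forestomach, also without mouse 10. The count was 1 without mouse 12 or 18 for lung against forestomach, and without mouse 10 or 19 for forestomach against liver.

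The same mouse gave its tissues, so the mouse served as a replicate block in the tissue fits: this gave 17 higher and 3 lower, 6 and 7, and 18 and 2, and changed no call count. Same-mouse deviations correlated with a median r of 0.12 in lung and liver, 0.02 in lung and forestomach and 0.06 in forestomach and liver.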

Other observations

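In forestomach, Col8a2, a hexagonal network chain, had a D3 change of 0.92 with an interval of -0.32 to 2.17, and Col23a1 had 1.02 with an interval of -0.24 to 2.28, so neither can be placed above or below D0. In lung, the same genes had D3 values of -0.17 and -0.14 (adjusted p = 0.5538 and 0.5817). The other probes of Col23a1 were both nominally lower in lung at D3, with -0.30 and -0.29 (adjusted p = 0.2248 and 0.3073). In forestomach those probes had 0.115 and 0.53 (adjusted p = 0.9102 and 0.6989).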
